A study of Mus musculus with 6 samples.

Results

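The 10 genes described here are Pax5, Ebf1, Tcf3, Foxo1, Ikzf1, Ikzf3, Lef1, Spib, Irf4 and Bach2, all of which encode transcription factors that set or keep the identity of B lymphocytes. They were chosen by name, and each of the 10 matched 1 row among the 21307 rows of the deposited expression table. The table compares cultured bone marrow B cells in which Prmt5 was deleted with 4-hydroxytamoxifen (4-OHT) with cells that received ethanol, at 3 libraries per condition. Both conditions came from pre-tumoral E-mu-myc;Prmt5F/FCreER mice on a C57BL/6 x 129S1/SvlmJ background at 6 to 8 weeks of age, so the MYC transgene, the loxP-flanked Prmt5 alleles and the inducible Cre were shared by the controls. Cells grew with interleukin 7 at 5 ng/ul. The 4-OHT cells had 50 nM 4-OHT for 24 h and the controls had ethanol, after which the agent was washed off and culture went on for 5 days. PRMT5 is an arginine methyltransferase that modifies Sm proteins of the spliceosome, and the Eµ-myc transgene drives MYC from an immunoglobulin heavy chain enhancer. The promoter that drives Cre, and whether the 3 libraries of a condition came from separate mice, are not given in the sources used here. The libraries are titled PT for 4-OHT and WT for ethanol, although 1 genotype is given for all 6, and the conditions are named here after the treatment.

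B-cell identity is built in steps. E2A, the product of Tcf3, and FOXO1 help to switch on EBF1, EBF1 switches on PAX5, and EBF1 and PAX5 together activate receptor and surface genes of B cells while PAX5 represses genes of other lineages. The Ikaros family proteins IKZF1 (Ikaros) and IKZF3 (Aiolos) and the interferon regulatory factor IRF4 act as pre-B cells leave the proliferating stage, and SPIB, LEF1 and BACH2 have further roles in early or maturing B cells.

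All 10 genes had the lower value in 4-OHT, but by very different amounts, and relative to the median of a list of B cell markers Ikzf1 and Bach2 lay higher. Of all compared rows of the table, 55.1% were lower and 44.9% higher in 4-OHT. Spib and Ebf1 were at least 2-fold lower, 6 further genes (Pax5, Irf4, Tcf3, Lef1, Foxo1 and Ikzf3) were between 1.5-fold and 2-fold lower, Ikzf1 was 1.30-fold lower, and Bach2 was nearly equal. Levels are FPKM, fragments scaled by the authors to transcript length and library size, and there is 1 value per gene and condition. Every difference below is therefore one of size: no replicate spread, test or interval can be given for it. Unless a level is named, a ratio is log2 of (4-OHT FPKM + 1) over (ethanol FPKM + 1), and the fold is taken on the same scale. Of the 10856 rows above 0 in both conditions with a mean of at least 1 FPKM, 2.58% were at least 2-fold lower in 4-OHT, against 2 of the 10 genes. At 1.5-fold the share was 12.8% of the rows, against 8 of the 10 genes. Among the 5425 rows with a mean of 10 to 100 FPKM, the range that holds all 10 genes, 2.47% were at least 2-fold lower and 13.5% at least 1.5-fold lower. The median log2 ratio was -0.69 for the 10 genes and -0.07 for all compared rows, or -0.13 for those of 10 to 100 FPKM. All 10 passed the filter on low values.

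Prmt5 itself was at 5.71 FPKM in 4-OHT and 41.6 FPKM in ethanol, and Myc was at 213 FPKM in 4-OHT and 402 FPKM in ethanol. RNA of the Eµ-myc transgene and of the endogenous Myc gene cannot be told apart in the Myc values. The B cell label was met by Cd79b (147 FPKM in 4-OHT and 256 FPKM in ethanol) and Cd24a (273 FPKM in 4-OHT and 451 FPKM in ethanol), whereas the mature B cell genes Cr2, Fcer2a and Ms4a1 were at or below 2.32 FPKM in both conditions. Markers of other cells were present as well. The summed level of 12 neutrophil markers was 3806 FPKM in 4-OHT and 469 FPKM in ethanol, and that of 14 macrophage markers was 1605 FPKM in 4-OHT and 731 FPKM in ethanol, without Lyz2, which is listed at 0 in 4-OHT. All 12 compared neutrophil and all 11 compared macrophage markers were higher in 4-OHT, as were 44.9% of all compared rows. The same held for all 11 megakaryocyte markers (915 FPKM in 4-OHT and 245 FPKM in ethanol, summed), for the 7 compared mast cell and basophil markers (346 FPKM in 4-OHT and 94.5 FPKM in ethanol, summed over all 11 listed, with Mcpt4 at 0 in both) and for the 10 compared stromal markers (603 FPKM in 4-OHT and 36.9 FPKM in ethanol, summed over all 12 listed). The 12 compared B cell markers were all lower in 4-OHT (55.1% of all rows), with a median log2 ratio of -0.63. The summed level, over 15 markers, was 890 FPKM in 4-OHT and 1569 FPKM in ethanol. In such bulk libraries, fewer B cells and less RNA per B cell cannot be told apart, and the part of other cells in the values below was not tested.

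**Figure D1:**
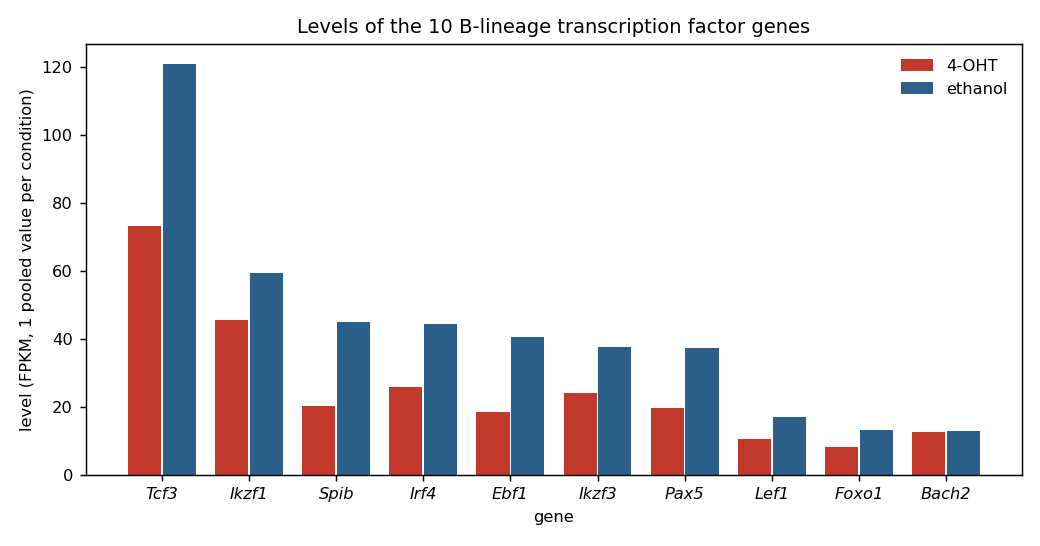
Level of each gene in FPKM (vertical axis, from 0) in 4-OHT (left bar) and ethanol (right bar), with genes ordered by the ethanol level and 1 pooled value per bar. Tcf3 stood highest in both conditions (73.2 FPKM in 4-OHT and 121 FPKM in ethanol), and the bars of Bach2 (12.5 FPKM in 4-OHT and 12.8 FPKM in ethanol) were the closest to each other.

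Ebf1 and Spib had the largest differences of the 10. Ebf1 encodes early B-cell factor 1, a pioneer factor that opens B-lineage genes, and lies on chromosome 11 (mm9, 44431636 to 44818674), the longest of these loci at 387 kb. Its level was 18.3 FPKM in 4-OHT and 40.5 FPKM in ethanol, a log2 ratio of -1.10 or 2.15-fold lower. Spib encodes an ETS factor of B cells and plasmacytoid dendritic cells and lies on chromosome 7 (51781365 to 51787441), the shortest locus at 6.08 kb. Its level was 20.1 FPKM in 4-OHT and 44.8 FPKM in ethanol, a log2 ratio of -1.12 or 2.17-fold lower. Of all compared rows, 1.75% had a lower ratio than Ebf1 and 1.65% had a lower ratio than Spib. Pax5, the commitment factor of the lineage, followed: on chromosome 4 (44544378 to 44723312), it stood at 19.7 FPKM in 4-OHT and 37.4 FPKM in ethanol (log2 ratio -0.89, 1.86-fold lower), with 3.87% of rows below it. Ebf1 was the more abundant of this pair in ethanol and Pax5 in 4-OHT: the level of Ebf1 over that of Pax5 was 0.931 in 4-OHT and 1.08 in ethanol, both near 1 and without a spread to weigh them by.

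The promoter windows of these 3 genes are printed here with that of Bach2, the gene with the smallest difference, so that genes far apart in the expression data can be read side by side. The windows are RefSeq sequences of GRCm38.p6, from 250 bases before to 50 after a transcription start, in the direction of the gene. Their coordinates are those of GRCm38.p6 and not of mm9. Capitals mark matches, on either strand, to the 8 motifs searched.
Ebf1, upstream start chr11:44617850-44618149 (plus strand): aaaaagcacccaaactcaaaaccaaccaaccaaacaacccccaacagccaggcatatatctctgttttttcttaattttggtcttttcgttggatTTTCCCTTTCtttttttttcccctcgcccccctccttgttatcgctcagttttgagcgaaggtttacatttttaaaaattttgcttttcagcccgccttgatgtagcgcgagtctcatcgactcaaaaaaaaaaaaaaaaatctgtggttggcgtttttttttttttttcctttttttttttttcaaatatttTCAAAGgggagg
Ebf1, downstream start chr11:44619978-44620277 (plus strand): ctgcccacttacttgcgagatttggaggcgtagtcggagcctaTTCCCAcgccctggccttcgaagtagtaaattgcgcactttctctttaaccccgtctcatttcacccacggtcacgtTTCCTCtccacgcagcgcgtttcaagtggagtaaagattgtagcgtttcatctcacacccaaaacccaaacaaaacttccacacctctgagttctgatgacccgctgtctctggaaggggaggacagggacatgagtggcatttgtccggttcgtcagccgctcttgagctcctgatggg
Spib chr7:44532022-44532321 (minus strand): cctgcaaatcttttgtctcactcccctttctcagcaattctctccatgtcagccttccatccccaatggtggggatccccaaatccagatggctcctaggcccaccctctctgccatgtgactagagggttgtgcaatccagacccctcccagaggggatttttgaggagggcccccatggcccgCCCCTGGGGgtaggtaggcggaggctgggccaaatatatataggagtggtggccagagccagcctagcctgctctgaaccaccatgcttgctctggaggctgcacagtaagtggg
Pax5 chr4:44710645-44710944 (minus strand): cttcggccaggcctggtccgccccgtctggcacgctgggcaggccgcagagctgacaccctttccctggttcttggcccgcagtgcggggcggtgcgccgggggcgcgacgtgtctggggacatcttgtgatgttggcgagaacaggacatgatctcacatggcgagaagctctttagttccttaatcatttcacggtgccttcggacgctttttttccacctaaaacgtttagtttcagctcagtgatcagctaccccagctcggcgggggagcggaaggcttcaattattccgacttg
Bach2 chr4:32417185-32417484 (plus strand): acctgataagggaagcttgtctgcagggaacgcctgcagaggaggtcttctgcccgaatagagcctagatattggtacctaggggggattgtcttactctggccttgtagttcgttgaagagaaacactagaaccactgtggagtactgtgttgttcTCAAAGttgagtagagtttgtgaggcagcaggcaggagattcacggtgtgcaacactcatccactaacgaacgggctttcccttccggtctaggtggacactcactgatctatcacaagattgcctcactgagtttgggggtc
The capitals in the upstream Ebf1 window are an interferon regulatory factor motif (a pair of GAAA separated by 2 bases, read on the opposite strand) and a LEF/TCF motif (CTTTGA, opposite strand), and those in the downstream window are an Ikaros motif (TGGGAA) and an ETS motif (GAGGAA), both on the opposite strand. The capitals in the Spib window are a pair of overlapping matches to an EBF motif (CCCNNGGG), and those in the Bach2 window are a LEF/TCF motif on the opposite strand. The Pax5 window held no match. The other motifs searched were an E box of E proteins (CAGCTG), a forkhead motif (TGTTTAC) and the octamer (ATTTGCAT).

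Over the 14 windows of the 9 genes with an entry (all but Ikzf3), matches were few. The EBF motif was in 3 windows, those of Foxo1, Spib and the upstream start of Ikzf1, and in 13.7% of all 32851 windows of the table. The LEF/TCF motif was in 3 windows, of Lef1, Ebf1 and Bach2, and in 16.0% of all windows. The IRF motif was in the 1 Ebf1 window, and in 3.44% of all. The Ikaros motif was in 4 windows, 3 of them of Lef1, and in 25.6% of all windows, and the ETS motif was in 3 windows and in 28.3% of all. The E box was in 1 Lef1 window and in 16.3% of all windows. The forkhead motif and the octamer were in none of the 14, and in 3.65% and 1.74% of all windows. A pair of the Lef1 windows overlap, so the windows are not independent. Base composition differed widely: the Spib window had an observed over expected CpG ratio of 0.0796 and the Foxo1 window one of 1.10, around a median of 0.384 for all windows. A match is a stretch of letters and does not show that a factor is bound there.

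Tcf3, Foxo1 and Lef1 had nearly the same ratio. Tcf3 (chromosome 10, 79871910 to 79896398) encodes the E proteins E12 and E47 and was the most abundant of the 10 genes, at 73.2 FPKM in 4-OHT and 121 FPKM in ethanol (log2 ratio -0.71, 1.64-fold lower). Foxo1 (chromosome 3, 52072259 to 52154031), whose product activates the recombinase genes and the interleukin 7 receptor gene, was at 8.04 FPKM in 4-OHT and 13.3 FPKM in ethanol (log2 ratio -0.66). Lef1 (chromosome 3, 130813389 to 130926249), a nuclear partner of beta-catenin that pro-B cells express, was at 10.4 FPKM in 4-OHT and 17.1 FPKM in ethanol (log2 ratio -0.67). The 4-OHT level was 60.5% to 60.9% of the ethanol level in these 3 genes, although their ethanol levels ranged from 13.3 to 121 FPKM. Summed over the 10 genes, the level was 258 FPKM in 4-OHT and 428 FPKM in ethanol, and Tcf3 made up 28.4% of the sum in 4-OHT and 28.2% in ethanol.

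Of the genes left, Irf4 and Ikzf3 had ratios close to those of Tcf3, Foxo1 and Lef1, and Ikzf1 and Bach2 had smaller differences. Irf4 (chromosome 13, 30841127 to 30858796), which promotes light chain rearrangement, was at 25.9 FPKM in 4-OHT and 44.3 FPKM in ethanol (log2 ratio -0.75, 1.69-fold lower). Ikzf3 (chromosome 11, 98326007 to 98407345) was at 23.9 FPKM in 4-OHT and 37.5 FPKM in ethanol (log2 ratio -0.63, 1.55-fold lower). Ikzf1 (chromosome 11, 11586216 to 11672929), which many blood lineages express, was at 45.6 FPKM in 4-OHT and 59.4 FPKM in ethanol (log2 ratio -0.37), and 25.8% of compared rows had a lower ratio. The level of Ikzf1 over that of Ikzf3 was 1.91 in 4-OHT and 1.58 in ethanol. Bach2 (chromosome 4, 32504410 to 32673083), a repressor that holds back plasma cell and myeloid genes, was at 12.5 FPKM in 4-OHT and 12.8 FPKM in ethanol (log2 ratio -0.03), and 53.2% of rows had a lower ratio. It was the least abundant of the 10 genes in ethanol and stood above Lef1 and Foxo1 in 4-OHT. The level of Bach2 over that of Ebf1 was 0.685 in 4-OHT and 0.316 in ethanol, and over that of Pax5 it was 0.638 in 4-OHT and 0.342 in ethanol.

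**Figure D2:**
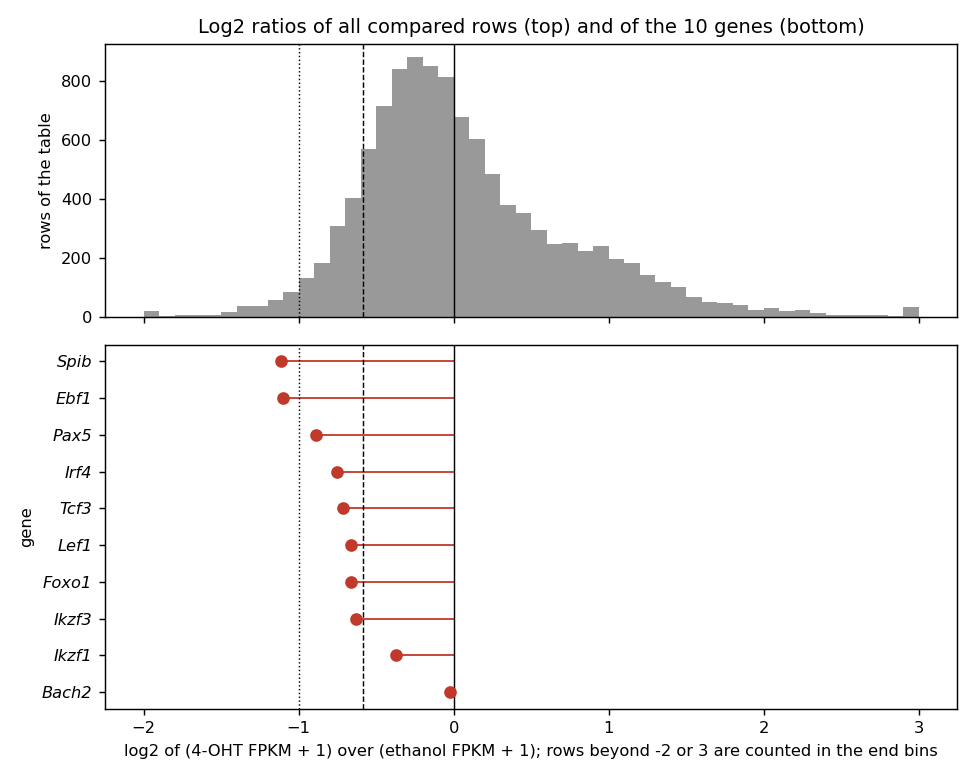
Number of compared rows by log2 ratio of 4-OHT over ethanol (top) and the ratio of each of the 10 genes (bottom), with a dotted line at 2-fold lower and a dashed line at 1.5-fold lower. Spib and Ebf1 lay beyond the dotted line, 6 further genes between the lines, and Ikzf1 and Bach2 right of both.

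Tcf3 and Ikzf1 had the highest levels of the 10 genes in both conditions, and Spib, Ebf1, Ikzf3 and Bach2 differed most in rank. In 4-OHT the order of the levels was Tcf3, Ikzf1, Irf4, Ikzf3, Spib, Pax5, Ebf1, Bach2, Lef1 and Foxo1, and in ethanol it was Tcf3, Ikzf1, Spib, Irf4, Ebf1, Ikzf3, Pax5, Lef1, Foxo1 and Bach2. Neighbours as close as Spib and Irf4 in ethanol (44.8 and 44.3 FPKM) or Ikzf3 and Pax5 in ethanol (37.5 and 37.4 FPKM) cannot be ordered without a spread between libraries. Set against the B cell marker list, whose median log2 ratio was -0.63, Spib, Ebf1 and Pax5 were lower still, by log2 differences of -0.49, -0.48 and -0.27. Irf4, Tcf3, Lef1, Foxo1 and Ikzf3 lay below that median by small amounts, from -0.13 for Irf4 to -0.0032 for Ikzf3, and Ikzf1 and Bach2 lay above it by 0.25 and 0.60. Cd22 and Cd72, surface genes in that marker list, were also nearly equal, at log2 ratios of -0.03 and -0.05.

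In the annotation of GRCm38 (GENCODE M21) all 10 are protein-coding genes, and the transcript with the longest coding sequence has 3 exons in Foxo1 and 19 in Tcf3, the extremes of the set. Genes on the opposite strand share exon bases with Pax5 (5730488B01Rik and Gm12462), Foxo1 (Gm20402), Lef1 (Gm43352) and Bach2 (Bach2os). The sources used here do not say whether fragments were assigned by strand, and without strand the reads of such a pair cannot be told apart. In the deposited table only BC024582 overlaps one of the 10 loci, that of Bach2, at 1.72 FPKM in 4-OHT and 1.32 FPKM in ethanol.

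The relatives of these genes were not lower as a group. Of 25 paralogs listed, 24 were in the table and 15 could be compared. Spi1, listed as a relative of Spib, was not found under that symbol, so its level is not known here. Of the 15, 10 were higher (44.9% of all rows) and 5 lower (55.1% of all rows) in 4-OHT, with a median log2 ratio of 0.14. None was at least 1.5-fold lower (12.8% of all rows), and a share over 15 genes rests on few of them. Tcf7, Irf7 and Tcf7l2 were at least 1.5-fold higher (19.5% of all rows).

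Among the E proteins, which bind E boxes as dimers, Tcf12 was at 21.6 FPKM in 4-OHT and 31.3 FPKM in ethanol (log2 ratio -0.52). Tcf4 was nearly equal, at 8.09 FPKM in 4-OHT and 8.29 FPKM in ethanol. The Id proteins, which bind E proteins and keep them off DNA, went another way. Id2 was at 139 FPKM in 4-OHT and 71.5 FPKM in ethanol (log2 ratio 0.95), Id1 was at 18.6 FPKM in 4-OHT and 7.28 FPKM in ethanol (log2 ratio 1.24), and Id3 was nearly equal at 49.4 FPKM in 4-OHT and 50.1 FPKM in ethanol. Of the 3 Id genes compared, only Id1 was at least 2-fold higher, as were 10.4% of all rows. The summed level of Tcf3, Tcf12 and Tcf4 over that of the 4 Id genes was 0.495 in 4-OHT and 1.24 in ethanol. Id2 is also expressed by myeloid and innate lymphoid cells, and the macrophage and neutrophil markers above were higher in 4-OHT. Their part in the Id values was not tested.

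The balance within other families differed between the conditions too. Foxo1 was the most abundant FOXO gene in ethanol, with 39.0% of the family sum, and had 27.1% in 4-OHT. Foxo3 was at 13.1 FPKM in 4-OHT and 10.3 FPKM in ethanol and made up 44.3% of the FOXO sum in 4-OHT against 30.4% in ethanol. Lef1 made up 62.6% of the TCF/LEF sum in 4-OHT and 87.3% in ethanol, beside Tcf7, the T cell member of the family, at 3.18 FPKM in 4-OHT and 1.35 FPKM in ethanol. Irf8, which shares targets with Irf4 in pre-B cells and is also a factor of macrophages and dendritic cells, was equal at 49.2 FPKM in 4-OHT and 48.8 FPKM in ethanol. The level of Irf4 over that of Irf8 was thus 0.526 in 4-OHT and 0.909 in ethanol. Bach1, the broadly expressed relative of Bach2, was at 16.5 FPKM in 4-OHT and 11.6 FPKM in ethanol, and Bach2 was the lower of the pair in 4-OHT and the higher in ethanol. Ebf1 made up 97.0% of the EBF sum in 4-OHT and 99.7% in ethanol.

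**Figure D3:**
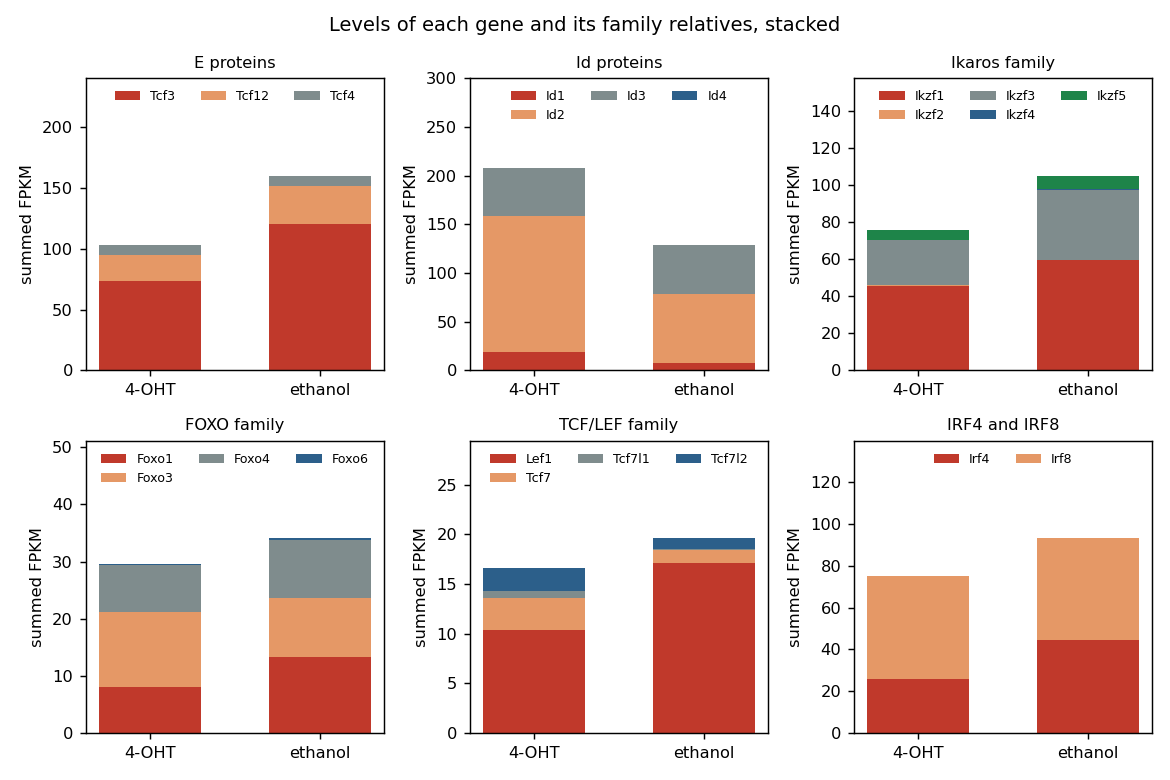
Stacked FPKM (vertical axis, from 0) of each family in 4-OHT (left) and ethanol (right), 1 colour per gene. The E protein stack was shorter in 4-OHT (103 FPKM, against 160 FPKM in ethanol) and the Id stack taller (208 FPKM, against 129 FPKM in ethanol).

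Other regulators of B cells were divided, as were all compared rows. Of 24 such genes, 14 were lower (55.1% of all rows) and 10 higher (44.9% of all rows) in 4-OHT. Their median log2 ratio was -0.16 (0.46 relative to the B cell marker median). At 1.5-fold, 6 were lower (12.8% of all rows) and 4 higher (19.5% of all rows). Bcl11a (6.17 FPKM in 4-OHT and 14.6 FPKM in ethanol), a zinc finger factor that early B cells require, Erg (7.08 FPKM in 4-OHT and 16.6 FPKM in ethanol), an ETS factor of progenitors, and Pou2af1 (100.1 FPKM in 4-OHT and 208 FPKM in ethanol), the B-cell coactivator of octamer factors, were at least 2-fold lower. These were 3 of 24, against 2.58% of all rows. Bcl6, a repressor of germinal centre and pre-B cells that is also a FOXO1 target, was at 10.2 FPKM in 4-OHT and 4.03 FPKM in ethanol (log2 ratio 1.16). Xbp1, a factor of secretory cells, was nearly equal, at 76.4 FPKM in 4-OHT and 77.1 FPKM in ethanol.

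Genes that textbooks give as activated by EBF1, PAX5 and E2A were mostly lower. Of 20, 18 were lower (55.1% of all rows) and 9 at least 2-fold lower (2.58% of all rows). The list median log2 ratio was -0.68 (-0.05 relative to the B cell marker median), next to -0.69 for the 10 factor genes. Of the 18, Rag1, Cd22 and Cd72 were nearly equal, at log2 ratios of -0.03, -0.03 and -0.05, and Rag2 was at -0.39. The surrogate light chain genes Vpreb2, Vpreb1 and Igll1 and the receptor gene Cd79a had the lowest ratios, at -2.67, -1.96, -1.74 and -1.59. The near identity of Vpreb1 and Vpreb2 makes the split of reads between them uncertain. Vpreb3 was at 242 FPKM in 4-OHT and 509 FPKM in ethanol and Cd79b at -0.80. Nedd9 and Bcar3, both PAX5-activated adaptor genes named after their values were seen, were the exceptions, at log2 ratios of 0.66 and 0.43. This list shares 7 genes with the B cell marker list, Cd79a, Cd79b and Blnk among them.

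Genes that PAX5 represses were mostly higher. Of 11, 9 were at least 1.5-fold higher (19.5% of all rows) and 4 at least 2-fold higher (10.4% of all rows), with a median log2 ratio of 0.91, and Notch1 passed 1.5-fold narrowly (log2 ratio 0.59). The chemokine genes Ccl9 (115 FPKM in 4-OHT and 37.6 FPKM in ethanol) and Ccl3, the adhesion gene Emb (111 FPKM in 4-OHT and 44.6 FPKM in ethanol) and the progenitor factor gene Lmo2 were the 4. Csf1r, the macrophage growth factor receptor gene, was at 152 FPKM in 4-OHT and 90.5 FPKM in ethanol. Flt3, a progenitor receptor gene, went the other way, at 1.53 FPKM in 4-OHT and 3.20 FPKM in ethanol (log2 ratio -0.73). Myeloid cells express many of these genes, and the macrophage markers had a median log2 ratio of 1.15 in the same comparison. The part of those cells in this list was not tested.

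FOXO1 target genes were divided, while Foxo1 itself was lower. Of 15, 7 were higher (44.9% of all rows) and 8 lower (55.1% of all rows), with a median log2 ratio of -0.02 (0.60 relative to the B cell marker median). None was at least 1.5-fold lower (12.8% of all rows), and 4 were at least 1.5-fold higher (19.5% of all rows). Sesn3, a sestrin gene, lay just short of 1.5-fold lower at a log2 ratio of -0.58. Il7r, the interleukin 7 receptor gene, was at 66.7 FPKM in 4-OHT and 77.6 FPKM in ethanol, and the adaptor gene Blnk was at 70.7 FPKM in 4-OHT and 102 FPKM in ethanol.

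Genes that Ikaros and Aiolos repress in pre-B cells were lower in all 7 cases (55.1% of all rows were lower). Their median log2 ratio was -0.91 (-0.28 relative to the B cell marker median), or -0.55 over the 4 genes that no other list holds. The 7 genes include Igll1, Vpreb1 and Vpreb2, at least 2-fold lower (2.58% of all rows), and Myc (log2 ratio -0.91). Ccnd3, the cyclin D3 gene, was at 195 FPKM in 4-OHT and 241 FPKM in ethanol. The Myc value, which is also the list median, cannot be split into RNA of the Eµ-myc transgene and of the endogenous gene. The 3 surrogate light chain genes are also in the list of EBF1-activated genes. The 6 genes that BACH2 represses were all higher (44.9% of all rows) and had a median log2 ratio of 0.99. At least 2-fold higher, as were 10.4% of all rows, were the heme oxygenase gene Hmox1 (419.5 FPKM in 4-OHT and 167 FPKM in ethanol) and the ferritin genes Fth1 (6403 FPKM in 4-OHT and 3078 FPKM in ethanol) and Ftl1. The ferritin genes have near-identical copies in the genome and their values are uncertain. Prdm1, the plasma cell gene that BACH2 represses, was nearly equal at 3.15 FPKM in 4-OHT and 2.93 FPKM in ethanol. Macrophages also express Hmox1 and ferritin strongly, and their part was not tested.

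Transcription factors of other lineages were higher in all 14 compared cases (44.9% of all rows were higher) and had a median log2 ratio of 1.18, and 8 were at least 2-fold higher (10.4% of all rows). Cebpb and Cebpa, myeloid factor genes, were the most abundant, at 67.6 FPKM and 50.4 FPKM in 4-OHT, against 35.1 FPKM and 18.5 FPKM in ethanol. The largest ratios were those of Cebpe (16.98 FPKM in 4-OHT and 2.07 FPKM in ethanol), a granulocyte factor, Nfe2 (log2 ratio 2.05), Cebpd (1.92) and the megakaryocyte and erythroid factor gene Gata1 (1.66). The summed level of the 20 listed genes was 276 FPKM in 4-OHT and 106 FPKM in ethanol. Neutrophil, macrophage and megakaryocyte markers were also higher in 4-OHT, and the part of those cells in this list was not tested.

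**Figure D4:**
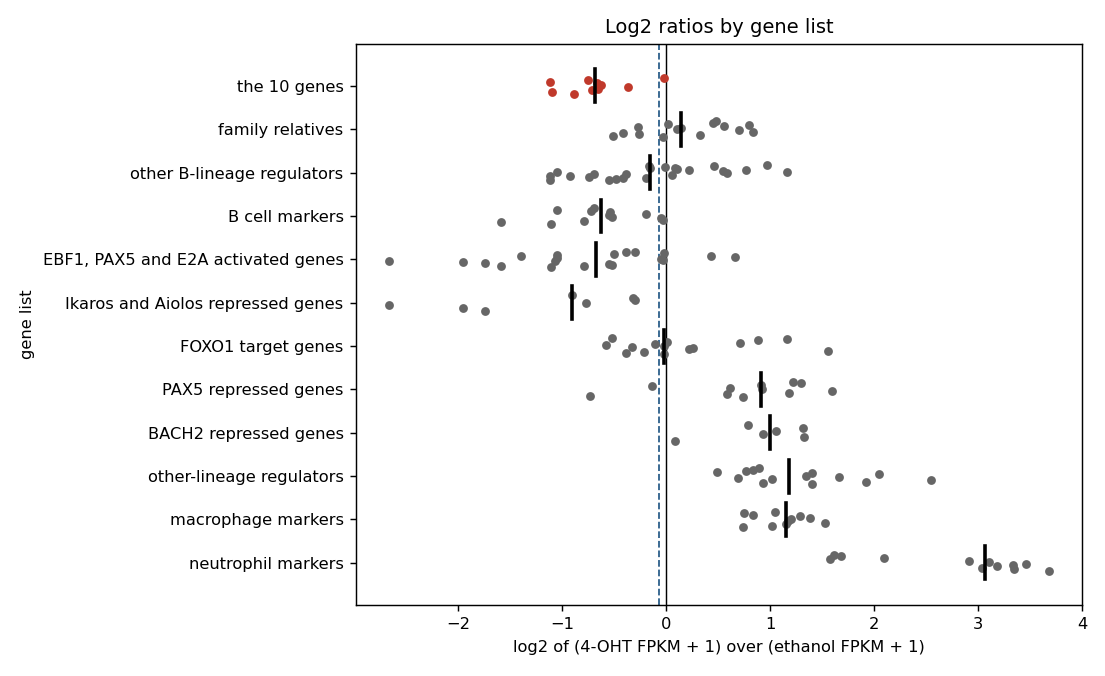
Log2 ratio of 4-OHT over ethanol (horizontal axis) of each compared gene (points) by list, with the list median as a black bar and the median of all compared rows (-0.07) as a dashed line. The medians of the 10 genes (-0.69), the B cell markers (-0.63) and the EBF1, PAX5 and E2A activated genes (-0.68) lay close together, left of the dashed line.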

How the data were processed

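Messenger RNA of 6 libraries, 3 of cells treated with 4-OHT and 3 of cells treated with ethanol, was measured by paired-end sequencing of TruSeq libraries, per the labels' protocols. The authors deposited FPKM, 1 value per gene and condition, and the sources used here do not say how they combined the libraries. The submitters' processing notes list CASAVA, TopHat2 2.0.9, Cufflinks 2.1.1 and build mm9. The deposited log2 fold changes served as an alternative. Depth is unknown, so no interval is given. The planned models across libraries were not run because the table holds no values per library.

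The log2 ratio used a pseudocount of 1 FPKM and understates changes of low genes. Rows were compared where both values were above 0 and their mean was at least 1 FPKM. A value of 1 was added to each locus start, as the table counts starts from 0. The computation was tested on simulated data. The 10 genes and the 21 gene lists beside them were chosen with earlier results of these data known. In each list, the 2 genes with the highest mean FPKM and up to 4 genes each way that differed at least 2-fold were named, and all other names, such as those of family relatives, were chosen after their values were seen. Prmt5 and Myc were named as checks. Some genes that this rule names are not reported here, although counts and medians include them. Promoters are RefSeq windows of GRCm38.p6, matched by symbol. Tables were handled with pandas 2.3.3 and numpy 2.4.6 under Python 3.11.15, and plots were drawn with matplotlib 3.10.9.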

Additional observations from a re-analysis of the deposited data

How the results depend on the processing

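Other pseudocounts, another or no minimum, median-of-ratios scaling, quantile normalization and the authors' deposited log2 fold changes left all 10 genes lower in 4-OHT and left 2 of them at least 2-fold and 8 at least 1.5-fold lower. Over these settings Ebf1 ran from -1.16 to -1.09, Spib from -1.17 to -1.09, Pax5 from -0.95 to -0.86 and Bach2 from -0.08 to -0.01. Relative to the median of the B cell marker list, which holds targets of the 10 factors and moves the median of all rows from -0.07 to 0.56, 0 of the 10 genes were at least 2-fold and 0 at least 1.5-fold lower: Ebf1 was at -0.48 and Spib at -0.49, and Ikzf1 and Bach2 turned to 0.25 and 0.60. On that scale the list medians were 1.58 for Id genes, 0.46 for other B-lineage regulators and 1.54 for PAX5-repressed genes. FOXO1 target genes were at 0.60 and BACH2-repressed genes at 1.62. EBF1, PAX5 and E2A activated genes were at -0.05 and Ikaros and Aiolos repressed genes at -0.28, and the median of the 10 genes was -0.06. All other medians kept their side of 2-fold, except that BACH2-repressed genes were at 1.00 with a pseudocount of 0.1 and with the deposited fold changes and at 1.06 with a minimum of 5 FPKM, other-lineage regulators at 0.86 with no minimum, and FOXO1 targets at 0.01 under quantile normalization. Without genes that another list also holds, an alternative chosen after seeing the data like that without merged rows, PAX5-repressed genes were at 1.04 and BACH2-repressed genes at 1.18, while Ikaros and Aiolos repressed genes were at -0.55 over 4 genes, against -0.91, and EBF1, PAX5 and E2A activated genes at -0.50 over 7 genes, against -0.68. Over all rows, 280 were at least 2-fold lower, against 457 with a pseudocount of 0.1, 482 with the deposited fold changes and 36 relative to the B cell markers. At least 2-fold higher were 1124 rows, against 700 with a minimum of 5 FPKM and 2819 relative to the B cell markers, and at least 1.5-fold lower were 1390, against 130 relative to the B cell markers. The cause of these changes was not tested, beyond the fewer rows compared with a minimum of 5 FPKM (8129). No paired analysis was possible because each condition has a single pooled value, so no replicate block could be fitted and no library could be left out.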

Other observations

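Lists of further cell types, given as values, completed the set. All 7 compared endothelial markers were at least 2-fold higher in 4-OHT (10.4% of all rows). Summed over 8 genes, the level was 73.4 FPKM in 4-OHT and 19.6 FPKM in ethanol. Pecam1 alone gave 34.9 FPKM in 4-OHT and 15.5 FPKM in ethanol. T cell markers summed to 29.4 FPKM in 4-OHT and 23.3 FPKM in ethanol over 11 genes, of which Lck gave 11.1 FPKM in 4-OHT and 13.6 FPKM in ethanol. Of the 6 compared T cell markers, 4 were higher (44.9% of all rows) and 2 lower, with a median log2 ratio of 0.62. Natural killer cell markers summed to 19.5 FPKM in 4-OHT and 5.53 FPKM in ethanol over 8 genes. Of these, Nkg7, a granule gene, gave 13.6 FPKM in 4-OHT and 1.62 FPKM in ethanol. Erythroid markers summed to 5.16 FPKM in 4-OHT and 2.01 FPKM in ethanol over 7 genes. The dendritic cell list, which holds Tcf4 and the abundant gene Cox6a2, had a median log2 ratio of -0.03 over 5 compared genes. Of the 6 compared plasma cell genes, 4 were lower (55.1% of all rows) and 2 at least 2-fold lower (2.58% of all rows), with a median log2 ratio of -0.32. The genes at least 2-fold lower were Mzb1 (82.4 FPKM in 4-OHT and 285 FPKM in ethanol) and Jchain (log2 ratio -1.71), and Slamf7 was at -0.62. Sdc1, a surface gene of plasma cells and stromal cells, was higher, at 48.8 FPKM in 4-OHT and 24.9 FPKM in ethanol.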
